A study of Mus musculus with 6 samples.

Results

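The genes described here are those carried by the mitochondrial genome. They were taken as the rows of the deposited count table whose gene name begins with mt- in lower case. Of 31319 genes with a row, 16 met the rule. They comprise 13 messenger RNA genes, 2 ribosomal RNA genes and 1 transfer RNA gene. The annotation of build GRCm38 lists 37 mitochondrial genes. The remaining 21 are all transfer RNA genes and were not analysed here.

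The libraries hold poly(A)-selected RNA of the main olfactory epithelium, where odours are sensed, from C57BL/6 males 5 months old. In 3 libraries the genotype is given as miR-200b/a knockdown (KD), and in 3 it is given as NC, the control, which the count columns call Control. The sources used here do not give how the knockdown was made or what the NC mice received. Nor do they give whether each library is a mouse of its own. The p-values therefore reflect only the spread among these libraries, possibly a technical one. In the fits that spread is estimated for each gene partly from other genes. The only comparison is KD against NC, which asks how transcripts differ when miR-200b and miR-200a, both microRNAs, are lowered. Values by library are listed in the order 1, 2, 3 within KD and within NC.

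The mitochondrial genome is transcribed from both strands as long precursors, and transfer RNAs that punctuate the genes are cut out to release the messenger and ribosomal RNAs. All of its messenger RNAs encode membrane subunits of the respiratory chain or of ATP synthase, and the rest of each complex is made from nuclear genes. Most mitochondrial messenger RNAs receive a short poly(A) tail, which in some cases completes the stop codon.

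Total counts ran from 15704791 to 17618540 per library. Some libraries stood apart before any mitochondrial gene is considered. The summed level of 10 markers of mature olfactory neurons was 95.8 CPM in KD-2, where CPM are counts scaled to a TMM-normalised total of 1000000. It was 3639 in KD-1, 4454 in KD-3 and 7620 to 12142 in the NC libraries. All 10 markers had counts in KD-2. Immunoglobulin genes took 14.7% of counts in KD-2 and 0.781% in NC-1, where the gland gene Bpifb9b took 7.66%. In these bulk libraries fewer cells of a type and less RNA per cell cannot be told apart.

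Several members have a near-identical copy in the nuclear genome, and reads from identical stretches cannot be told apart. Aligning the mitochondrial transcripts to all other annotated transcripts found 7 unprocessed pseudogenes side by side on chromosome 1 (24611535 to 24616197, build GRCm38, minus strand). They match mitochondrial positions 6390 to 11042, from the last part of mt-Co1 to the middle of mt-Nd4. Gm28661, Gm10925, Gm28437 and Gm10222 were identical to mt-Co2, mt-Atp6, mt-Co3 and mt-Nd4l over 681, 678, 783 and 294 bases, the whole of each pseudogene. Gm28439 was identical to the first 876 of the 1378 bases of mt-Nd4. Gm28438 differed from mt-Nd3 at 1 of 345 aligned bases, and Gm29216 differed from mt-Co1 at 1 of the 483 bases that aligned.

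The windows around those differences are shown because they are the aligned bases at which a read could tell these copies apart, with the differing base in capitals. The substitutions are T3C in mt-Nd3 (mitochondrial position 9461) and A1066T in mt-Co1 (position 6393), counted from 1 at the 5′ end of each gene, with the mitochondrial base first. The windows lie at chrM:9459-9483 (plus strand), chr1:24613095-24613119 (minus strand), chrM:6390-6414 (plus strand) and chr1:24616164-24616188 (minus strand), in GRCm38.
mt-Nd3: atTaacctgtacactgttatcttca
Gm28438: atCaacctgtacactgttatcttca
mt-Co1: ggaAttgttttatccaactcatccc
Gm29216: ggaTttgttttatccaactcatccc

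The gene models also overlap each other, which leaves fragments that belong to more than 1 gene. The end of mt-Nd4l and the start of mt-Nd4 share 7 bases, in capitals below (chrM:10158-10182, plus strand). mt-Atp8 and mt-Atp6 share 43 bases. mt-Nd5 and mt-Nd6 share 14 bases on opposite strands. With the strand setting not given in the sources used here, reads of mt-Nd6 and of the RNA opposite to it cannot be told apart.
mt-Nd4l and mt-Nd4: cctactacaATGCTAAaaattattc

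In 3 messenger genes the annotated sequence ends inside a codon, 1 base after the last whole codon. That base is in capitals below, at chrM:9378-9390, chrM:11532-11544 and chrM:15276-15288, all on the plus strand. These ends are shown because the libraries were selected for poly(A), and at such ends the tail itself supplies the missing bases of the stop codon.
mt-Co3: tgatgaggatctT
mt-Nd4: ggcctgacaataT
mt-Cytb: aaattatatccaT

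Levels of the members spanned a wide range along this small genome. The highest was mt-Co1, the catalytic subunit of complex IV (chromosome M, 5328 to 6872), with raw counts of 164592, 151374 and 195304 in KD and 180365, 216927 and 200352 in NC. It ranked at 7 of all 31319 genes by mean CPM. Levels between genes were compared as counts per kilobase and per 1000000 total counts. On that scale the 7 messenger genes lying outside the chromosome 1 match or only partly inside it, which are mt-Nd1, mt-Nd2, mt-Co1, mt-Nd4, mt-Nd5, mt-Nd6 and mt-Cytb, stood between 729 and 7969 in single libraries. The 5 messenger genes matched over nearly their whole length stood between 2.57 and 97.6 on the same scale. These 2 sets did not overlap in any library, and the sets were formed after the counts had been seen.

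**Figure D1:**
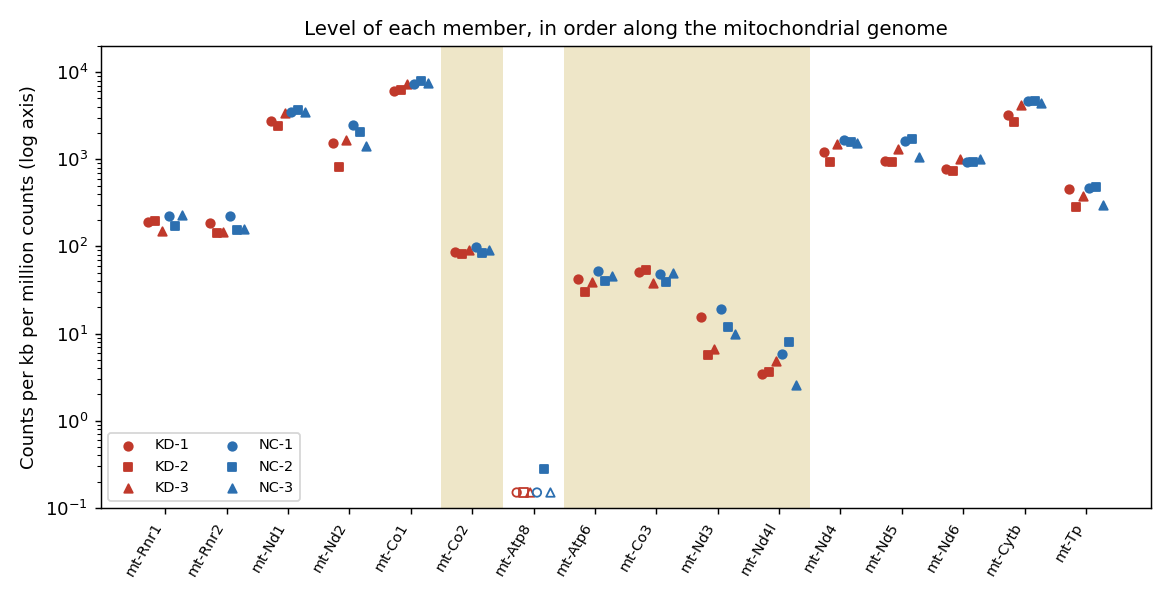
Counts per kilobase and per 1000000 total counts (log axis) of the 16 members in genome order, by library, with KD in red and NC in blue. Shaded are the 5 genes with a chromosome 1 copy over nearly their whole length, at 2.57 to 97.6, and open symbols at the bottom stand for 0 counts.

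Within the messenger genes of complex IV the contrast was steep although all encode core subunits. mt-Co2 (7013 to 7696) had 1032, 869 and 1072 counts in KD and 1079, 1010 and 1062 in NC. mt-Co3 (8607 to 9390) had 708, 663 and 522 against 610, 536 and 657. On the scale per kilobase, mt-Co2 averaged 88.3 and mt-Co3 46.6 over the 6 libraries, against 7066 for mt-Co1. Since both are identical to a nuclear copy over nearly their whole length, their levels are uncertain. The part of read placement in the low counts was not tested.

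Both ATP synthase genes had low counts. mt-Atp6, the proton-channel subunit (7927 to 8607), had 504, 321 and 455 counts in KD and 577, 476 and 527 in NC. mt-Atp8, a small membrane subunit (7766 to 7969), had 1 count in all 6 libraries, in NC-2. Where none was counted, as in KD-2, counting error alone allows up to 3 counts, there equal to 0.191 per 1000000. The copies of its neighbours, Gm10925 and Gm28661, are 233 bases apart on chromosome 1, and mt-Atp8 is 204 bases long. The sequence of that gap was not analysed here.

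Complex I, which takes electrons from NADH, has 7 subunits among the members. mt-Nd1 (2751 to 3707) had 46069, 36401 and 55671 counts in KD and 53748, 61455 and 56224 in NC. mt-Nd2 (3914 to 4951) had 27707, 13371 and 29609 against 41030, 37314 and 24970. mt-Nd4 (10167 to 11544) had 29685, 20045 and 35900 against 36900, 38280 and 35780. In each of mt-Nd1, mt-Nd2 and mt-Nd4 the lowest count was that of KD-2, the library with the lowest total. Normalised by TMM this still held for mt-Nd2 and mt-Nd4. For mt-Nd1 the lowest was then KD-1, at 2690 CPM against 2788 in KD-2.

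The rest of complex I held both high and very low members. mt-Nd5 (11742 to 13565) had 31031, 26469 and 41167 counts in KD and 47610, 54589 and 33408 in NC. mt-Nd6, the one messenger gene on the other strand (13552 to 14070), had 7126, 5944 and 9003 against 7762, 8565 and 8838. mt-Nd3 (9459 to 9806) had 96, 31 and 40 against 107, 72 and 59. mt-Nd4l (9877 to 10173) had 18, 17 and 25 against 28, 42 and 13. The last pair of genes lies inside the chromosome 1 match, and their groups overlapped.

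Order by level depended on which part of a gene was counted as its length. Over full length the order was mt-Co1, mt-Cytb, mt-Nd1, mt-Nd2, mt-Nd4, mt-Nd5 and mt-Nd6, with means of 7066, 3987, 3181, 1647, 1402, 1264 and 895 counts per kilobase and per 1000000. Each step held in 6 of 6 libraries except mt-Nd2 over mt-Nd4, which held in 4, and mt-Nd4 over mt-Nd5, which held in 5. When only the 502 bases of mt-Nd4 outside the copy were counted as its length, it averaged 3849, above mt-Nd1 in 6 of 6 libraries and below mt-Cytb in 5. On the same footing mt-Co1 averaged 10280 over its remaining 1062 bases. All counts of each gene were kept here, including any from the copied bases. The values 3849 and 10280 are therefore upper limits for the bases outside the copy, and the place of mt-Nd4 in the order is uncertain.

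No member passed the test of KD against NC. Of the 16 members 15 passed the filter on low counts and mt-Atp8 did not. In the edgeR quasi-likelihood fit, with Benjamini-Hochberg adjustment over all genes, 0 of 15 passed 0.05, the adjusted p running from 0.45 to 0.98. None had an unadjusted p under 0.05 either, where 17.9% of all 18444 tested genes did, 9.25% lower and 8.7% higher in KD. After adjustment 0% of all genes passed. DESeq2 called 0 of the 15, against 1.89% of all genes. In the authors' deposited table the smallest unadjusted p among the members was 0.093, for mt-Cytb.

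The fitted differences were small and mostly downward. Fitted log2 fold changes ran from -0.45 for mt-Nd2 to 0.25 for mt-Co3, with 13 below 0 and 2 above. Their median was -0.17, against 0.0072 over all tested genes, of which 49.4% were below 0. The members are transcribed together and are not independent of each other. All 15 of the 95% intervals included no change, and 9 lay wholly within a 2-fold change in either direction. The other 6, those of mt-Nd2, mt-Co1, mt-Nd3, mt-Nd4l, mt-Nd5 and mt-Cytb, reached below a 2-fold decrease, and 0 reached a 2-fold increase.

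**Figure D2:**
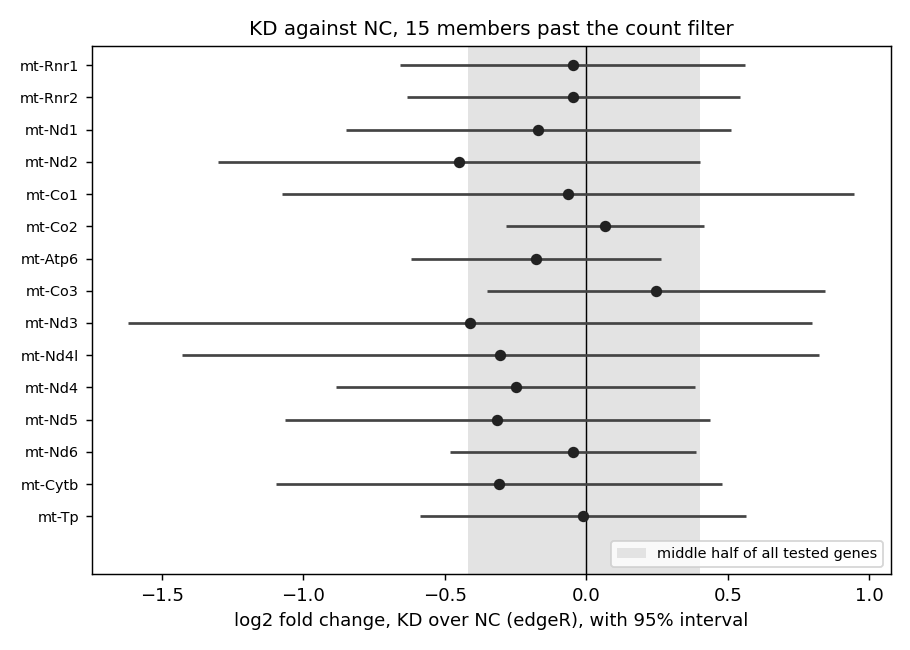
Fitted log2 fold change of KD over NC (edgeR) for the 15 members past the count filter, as points with 95% intervals, beside the middle range of all tested genes in grey. All 15 intervals include 0, and the lowest point is mt-Nd2 at -0.45.

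mt-Cytb, the subunit of complex III that carries its quinone-binding sites (14145 to 15288), was one of only 2 members whose groups did not overlap. It had 64892, 48145 and 83977 raw counts in KD against 86345, 95138 and 85519 in NC. Normalised by TMM it stood at 3789, 3688 and 4629 CPM in KD and 5326, 4860 and 4794 in NC, so that each KD library lay below each NC library, KD-3 by little. The means were 4035 ± 516 and 4993 ± 290 CPM (SD, n = 3 each), with a log2 fold change of -0.31 (SE 0.32, edgeR adjusted p = 0.57) and a 95% interval from 0.468-fold to 1.39-fold.

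The other was mt-Nd1, at 2690, 2788 and 3068 CPM in KD and 3315, 3139 and 3152 in NC, with means of 2849 ± 196 and 3202 ± 98.0 (SD, n = 3 each). Its log2 fold change was -0.17 (SE 0.28, edgeR adjusted p = 0.72). These 2 of 15 members are to be read against 33.9% of all tested genes whose groups did not overlap, 18.6% with KD lower and 15.3% with KD higher. The lower values of both genes in KD did not pass the test.

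The largest fitted difference was that of mt-Nd2. mt-Nd2 stood at 1618, 1024 and 1632 CPM in KD and 2531, 1906 and 1400 in NC, with KD-2 lowest, NC-1 highest and NC-3 below KD-1 and KD-3. Its log2 fold change was -0.45 (SE 0.35, edgeR adjusted p = 0.45). It was -0.24 without KD-2, -0.21 without NC-1 and -0.64 without NC-3. With KD-2 and NC-1 left out together, the lowest KD and the highest NC library of this gene, it was 0.0022, which leaving out these extremes had to bring nearer to 0. The mature neuron markers had their lowest and highest summed levels in the same 2 libraries. With the mean log2 CPM of these markers as a covariate the log2 fold change of mt-Nd2 was -0.067 (edgeR adjusted p = 0.98). The summed marker level was lower in each KD library than in each NC library, so this fit cannot separate marker level from group. In the same fit mt-Rnr1 moved from -0.048 to -0.34. The part of the neurons in these values was not tested.

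mt-Nd5 likewise had its highest values in NC-1 and NC-2, at 2936 and 2789 CPM, but NC-3 at 1873 lay among the KD values of 1812, 2027 and 2269. Its log2 fold change was -0.31 (SE 0.31, edgeR adjusted p = 0.54). mt-Nd4 was at 1733, 1535 and 1979 CPM in KD and 2276, 1956 and 2006 in NC, with KD-3 above NC-2 (log2 fold change -0.25, SE 0.26, edgeR adjusted p = 0.57). In these genes the groups overlapped by 1 library each.

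The level of mt-Co1 was the steadiest within NC. It stood at 11125, 11082 and 11231 CPM there and at 9611, 11595 and 10765 in KD, so that the KD values enclosed the NC values. The means were 10657 ± 996 and 11146 ± 76.9 CPM (SD, n = 3 each). Its log2 fold change was -0.065 (edgeR adjusted p = 0.93), with a 95% interval from 0.474-fold to 1.93-fold. The fit draws partly on the spread of other genes, so the width of this interval is not that of the mt-Co1 values alone.

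mt-Nd6 showed no separation either, at 416, 455 and 496 CPM in KD and 479, 438 and 495 in NC (log2 fold change -0.046, SE 0.18, edgeR adjusted p = 0.88). Its 95% interval, from 0.717-fold to 1.31-fold, excludes a 2-fold change. The interval of mt-Co2, from 0.821-fold to 1.33-fold, also lay within a 2-fold change, for the counts as deposited. Which reads those counts hold is uncertain, since nearly all of the gene has an identical copy on chromosome 1. With the counts of that copy added, its log2 fold change was -0.55 instead of 0.065.

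**Figure D3:**
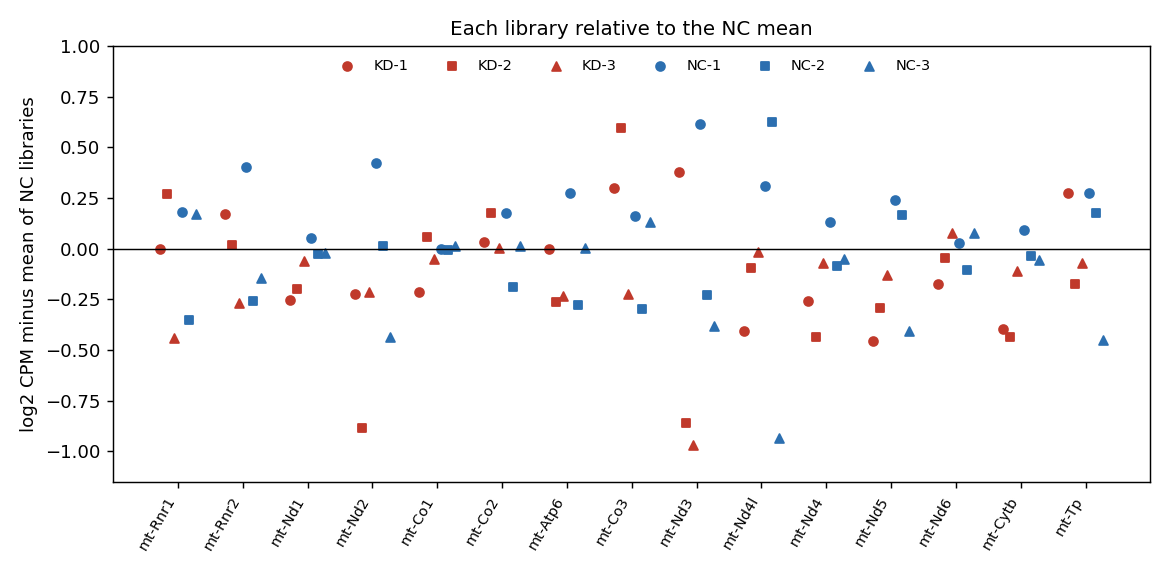
log2 CPM of each member in each library minus its mean over the NC libraries, with KD in red and NC in blue, for the 15 members past the count filter. KD-2 is lowest for mt-Nd2 at -0.88, the values of mt-Co1 lie between -0.21 and 0.057, and the groups separate only for mt-Cytb and mt-Nd1.

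The ribosomal RNA genes, which code for the RNAs of the mitochondrial ribosome, were far below the messenger genes next to them. mt-Rnr1, the small-subunit RNA (70 to 1024), had 3202, 2949 and 2506 counts in KD and 3444, 2872 and 3755 in NC. mt-Rnr2, the large-subunit RNA (1094 to 2675), had 5111, 3498 and 3987 against 5679, 4328 and 4279. Per kilobase and per 1000000 counts they stood between 141 and 231 in single libraries, against 3181 on average for mt-Nd1 just downstream on the same scale. The libraries were selected for poly(A), so these levels do not measure the ribosomal RNA of the tissue. Their log2 fold changes were -0.048 and -0.045 (edgeR adjusted p = 0.91 and 0.92), and the groups overlapped in both.

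The transfer RNA gene mt-Tp, for proline, lies on the opposite strand at 15356 to 15422 and had 534, 298 and 445 counts in KD and 505, 570 and 337 in NC. Its log2 fold change was -0.011 (SE 0.24, edgeR adjusted p = 0.98), and the groups overlapped. Transfer RNAs carry no long poly(A) tail, and reads of a longer RNA running through a 67-base gene cannot be told from its own.

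As a share of all counts the mitochondrial genes did not overlap between the groups, KD being lower. They took 2.17%, 1.98% and 2.65% in KD against 2.88%, 2.96% and 2.67% in NC, or 2.27 ± 0.348% and 2.84 ± 0.149% (SD, n = 3 each). KD-3 and NC-3 were nearly equal, at 2.65% (95% exact binomial interval 2.646 to 2.662) and 2.67% (2.667 to 2.682, counting error alone). No p is given for this sum, since an exact permutation test of 3 against 3 libraries cannot go below 0.1. The members were taken by gene name, with earlier results of these data known. With immunoglobulin genes and Bpifb9b taken out of the total the shares were 2.37%, 2.36% and 2.82% against 3.15%, 3.13% and 2.87%.

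No messenger gene's share of the summed messenger counts separated the groups. Of the summed messenger counts mt-Co1 took 44.1%, 49.9% and 43.1% in KD and 39.5%, 42.2% and 44.8% in NC. The complex I genes took 36.5 ± 2.44% and 38.5 ± 2.74%, and mt-Cytb took 17.3 ± 1.35% and 18.8 ± 0.318% (SD, n = 3 each). The shares of 13 of the 13 messenger genes overlapped between groups. That of mt-Atp8, with 1 count in all, could not have done otherwise. For mt-Cytb the overlap was narrow, KD-3 at 18.55% lying above NC-2 at 18.49%.

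A ratio of 2 members within a library does not depend on the library's total, and 3 such ratios were compared. mt-Nd6, from the strand opposite to the other messenger genes, had 110, 123 and 107 counts per 1000 mt-Cytb counts in KD and 89.9, 90.03 and 103 in NC. Every KD value was above every NC value, with means of 113 ± 8.73 and 94.4 ± 7.73 (SD, n = 3 each). By a two-sided exact permutation test p was 0.1, which is the lowest that 3 against 3 can give, and 0.3 after Benjamini-Hochberg adjustment over 3 ratios. mt-Rnr2 had 111, 96.1 and 71.6 counts per 1000 mt-Nd1 counts in KD and 106, 70.4 and 76.1 in NC (exact permutation test, p = 0.6, adjusted 0.6). mt-Nd5 had 189, 175 and 211 per 1000 mt-Co1 counts in KD and 264, 252 and 167 in NC (exact permutation test, p = 0.4, adjusted 0.6). With these group sizes no ratio could have passed 0.05, so the p-values do not show that the ratios were alike.

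The nuclear copies on chromosome 1 separated the libraries in a way that crossed the groups. Summed over the 7 pseudogenes there were 24617, 2269 and 2820 counts in KD against 23433, 23194 and 3069 in NC. KD-1, NC-1 and NC-2 were thus high, and KD-2, KD-3 and NC-3 were low. Gm28661, the copy of mt-Co2, had 5410, 441 and 559 counts in KD and 5235, 5769 and 642 in NC. Gm28437, the copy of mt-Co3, had 5330, 402 and 471 against 4326, 4268 and 558, and Gm10925, the copy of mt-Atp6, had 6668, 929 and 1140 against 6791, 6248 and 1273. In each of the 7 copies the same libraries were the high ones.

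The mitochondrial counterparts did not follow this split, with the exception of mt-Nd3, which was highest in the same 3 libraries. mt-Tp and mt-Rnr2, which lie outside the match, also had their 3 highest raw counts there, and in TMM-normalised CPM this held for mt-Tp and not for mt-Rnr2. The 5 members copied over nearly their whole length summed to 134, 121 and 122 per 1000000 total counts in KD against 149, 121 and 136 in NC. The summed copies stood at 1400, 144 and 163 per 1000000 in KD against 1450, 1316 and 180 in NC. Gm28661 therefore held 84.0%, 33.7% and 34.3% of its joint counts with mt-Co2 in KD and 82.9%, 85.1% and 37.7% in NC. Reads of the copies and of the mitochondrial genes are near-identical, so each of these counts is uncertain. What separates the libraries was not tested.

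**Figure D4:**
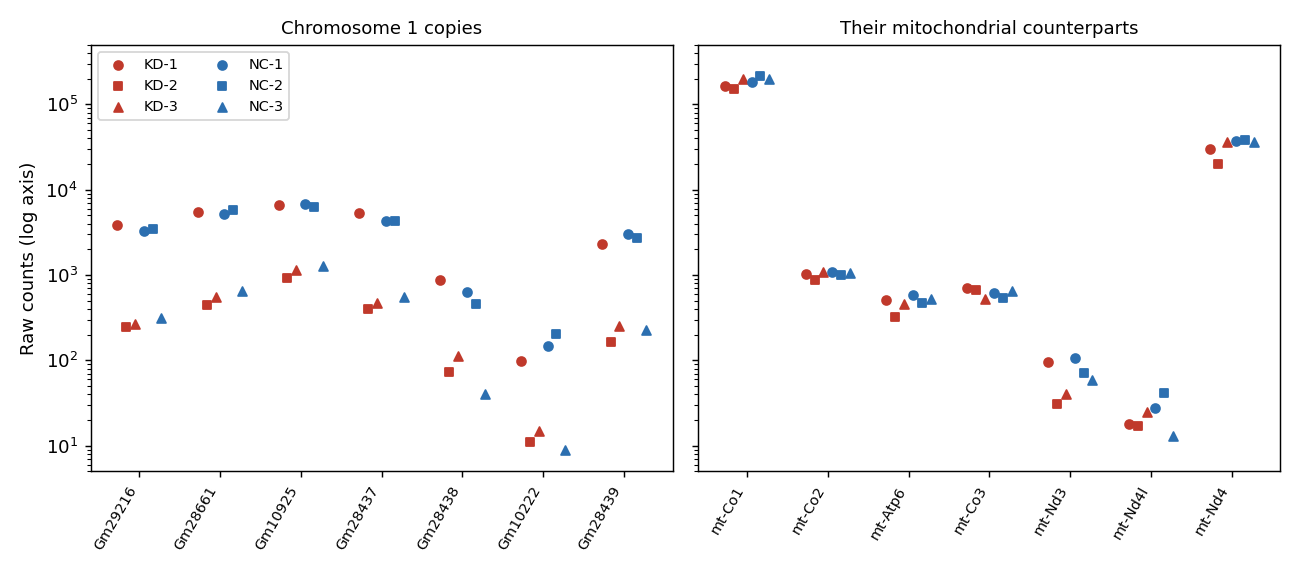
Raw counts (log axis) of the 7 chromosome 1 copies (left) and of the mitochondrial genes they match (right) by library, with KD in red and NC in blue. KD-1, NC-1 and NC-2 are high and KD-2, KD-3 and NC-3 low in every copy, for example 5410, 5235 and 5769 against 441, 559 and 642 for Gm28661, while mt-Co2 stays between 869 and 1079.

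Less similar copies elsewhere had other values. Gm13340 on chromosome 2, which matches mt-Co1 over all 1545 bases with 37 differences, had 22, 66 and 74 counts in KD and 30, 30 and 94 in NC, with the high and low libraries exchanged relative to the chromosome 1 copies. Gm13341, Gm13339 and Gm4076, which match mt-Co2, mt-Nd2 and mt-Nd5, had at most 4 counts in any library. With the counts of each chromosome 1 copy added to its mitochondrial gene, the log2 fold change of mt-Co3 turned from 0.25 to -0.34 and that of mt-Co2 from 0.065 to -0.55, and neither passed (edgeR adjusted p = 0.81 and 0.65). For mt-Nd4l it moved from -0.30 to -1.14 and for mt-Atp6 from -0.18 to -0.58, and for mt-Nd3 it moved the other way, from -0.41 to -0.10.

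No nuclear gene for another subunit of these complexes passed the edgeR test, which 0 of all 18444 tested genes passed. Of 37 tested nuclear genes of complex I 0 rose and 0 fell after adjustment, with a median log2 fold change of 0.017. The medians were -0.13 for 4 genes of complex II, which has no mitochondrially encoded subunit, 0.19 for 9 of complex III, 0.13 for 15 of complex IV and 0.048 for 16 of ATP synthase, again with 0 passing. Over all 81, 30 were below 0 and 51 above, against 10 below and 2 above among the 12 tested mitochondrial messenger genes and 49.4% below among all tested genes. At an unadjusted p under 0.05 there was 1 of the 81, where 17.9% of all tested genes passed that level. It was Ndufb2, an accessory subunit of complex I, at 9.46 ± 1.83 CPM in KD against 18.1 ± 5.71 (SD, n = 3 each; edgeR adjusted p = 0.28).

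The nuclear genes of complex IV and the mitochondrial messenger genes of all complexes had different libraries at their extremes. The median of the 15 nuclear complex IV genes, as log2(CPM + 0.5) minus that of the NC libraries on average, was -0.075, 0.36 and 0.17 in KD against -0.31, -0.076 and 0.49 in NC. That of the 12 mitochondrial messenger genes was -0.22, -0.23 and -0.088 in KD and 0.17, -0.061 and -0.036 in NC. NC-1 was thus the highest library for the mitochondrial median and the lowest for the nuclear genes of complex IV. mt-Co1, itself a complex IV gene, was highest in KD-2 and NC-3 (0.057 and 0.011 against the NC mean of its log2 CPM), which were also the highest for the nuclear complex IV genes. KD-1, NC-1 and NC-2, which were high in the chromosome 1 copies, had the lowest medians for the nuclear genes of complexes I, III, IV and ATP synthase. What these libraries share was not tested.

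**Figure D5:**
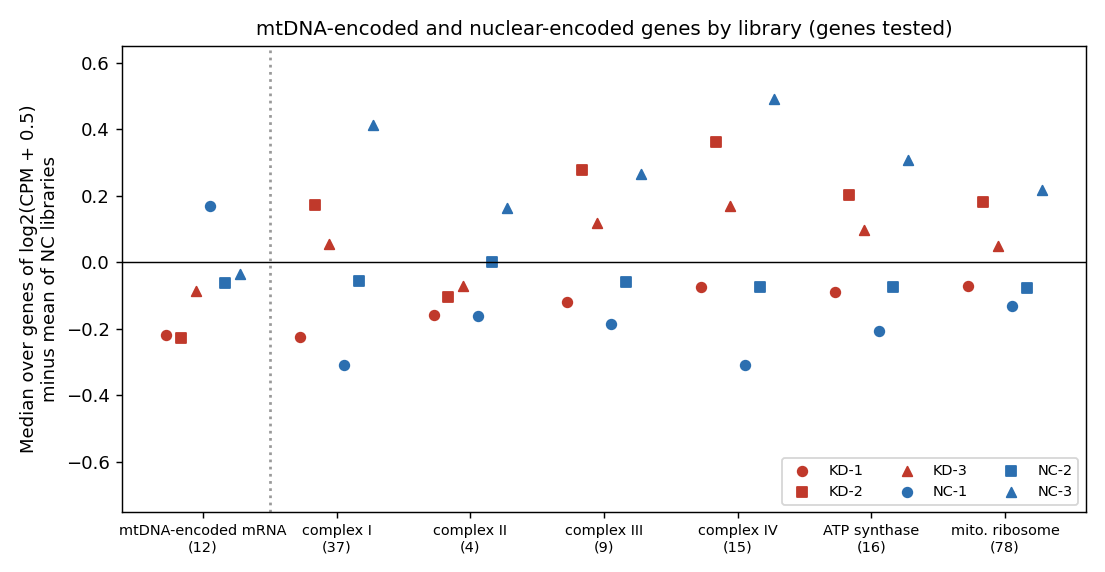
For each gene list (number of genes tested below its name), the median of log2(CPM + 0.5) minus the NC mean in each library, with KD in red and NC in blue. For complex IV the medians run from -0.31 in NC-1 to 0.49 in NC-3, while the mitochondrial messenger genes run from -0.23 in KD-2 to 0.17 in NC-1.

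Genes that act on the mitochondrial genome and its RNA gave 0 calls in edgeR, where 0 of all 18444 tested genes were called. Of 13 genes of mitochondrial transcription and DNA maintenance, among them the polymerase gene Polrmt and the packaging factor gene Tfam, 7 were below 0 and 6 above (median log2 fold change -0.031). The smallest p there was that of Mterf3, of the mitochondrial transcription terminator family, at 19.5 ± 3.38 CPM in KD against 25.5 ± 4.89 (SD, n = 3 each; edgeR adjusted p = 0.33). Of 16 tested genes of RNA processing and stability 6 were below 0 and 10 above (median 0.049). The smallest p in that list was that of 1110008L16Rik, at 13.8 ± 2.63 CPM in KD against 9.98 ± 0.696 (edgeR adjusted p = 0.29). Grsf1, which codes for a protein of mitochondrial RNA granules, came next, at 104 ± 23.8 against 157 ± 53.4 CPM (edgeR adjusted p = 0.31). Of 78 tested genes of mitochondrial ribosomal proteins 31 were below 0 and 47 above (median 0.058).

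Among 6 regulators of mitochondrial biogenesis the coactivator gene Ppargc1a had the smallest p. It stood at 12.2 ± 3.27 CPM in KD against 30.6 ± 7.99 (SD, n = 3 each), with groups that did not overlap and a log2 fold change of -1.32 (SE 0.29, unadjusted p = 0.0036, edgeR adjusted p = 0.28). Its relative Pprc1 was at 43.7 ± 7.52 against 31.3 ± 5.40 CPM (log2 fold change 0.48, edgeR unadjusted p = 0.044, adjusted p = 0.28). Its groups did not overlap either, KD being higher. Neither passed after adjustment. Groups did not overlap in 33.9% of all tested genes, and 17.9% had an unadjusted p under 0.05. Of 14 genes of other mitochondrial membrane and matrix proteins 6 were below 0 and 8 above (median 0.028), with Vdac1, the outer membrane channel, at 167 ± 18.5 against 200.3 ± 9.61 CPM (edgeR adjusted p = 0.36).

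Markers of several cell types of the nasal lining differed between libraries, with 0 called in any list named here and 0 among all tested genes. Relative to the NC mean the median of 10 mature neuron markers was -1.38, -6.97 and -1.01 in KD, and 10 of 10 were fitted below 0. Of 6 sustentacular cell markers 5 were below 0 (median log2 fold change -1.04). All 6 of 6 horizontal basal cell markers were above 0 (median 1.35) with groups that did not overlap. Of them 5 had an unadjusted p under 0.05 in edgeR. Of all tested genes 49.4% were below 0. Groups did not overlap, with KD higher, in 15.3% of all tested genes, and 8.7% had an unadjusted p under 0.05 with KD higher. All 6 myeloid and all 6 plasma cell markers were above 0 (medians 1.52 and 0.98), and so were 3 of 4 endothelial markers (median 0.82). Groups did not overlap, KD being higher, in 3, 2 and 3 of these, and 3, 1 and 3 had an unadjusted p under 0.05 in edgeR. The summed plasma cell level of NC-3, 24229 CPM, lay above KD-1 at 19842 and KD-3 at 15839. For the myeloid markers NC-3 at 3751 lay above KD-3 at 2355. The summed level of 8 skeletal muscle markers, of a tissue rich in mitochondria, lay between 5.21 and 15.7 CPM in all 6 libraries, highest in NC-1, and 3 of them had 0 counts in KD-2. Of 7 motile ciliated cell markers 5 were above 0 (median log2 fold change 0.36), and their summed level was 689, 765 and 780 CPM in KD and 514, 653 and 630 in NC. Histone genes whose messages normally lack a poly(A) tail were fitted below 0 in 19 of 20 tested cases (median -1.01), again with 0 called. With KD lower, 7 of these 20 had an unadjusted p under 0.05 in edgeR, against 9.25% of all tested genes. In 9 of the 20 the groups did not overlap, KD being lower, against 18.6% of all tested genes. The part of cell composition and of poly(A) selection in the mitochondrial values was not tested.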

How the data were processed

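The authors deposited 1 table with raw counts per gene and library. Per the file headers its other columns are the authors' mean signal, their log2 fold change (KD relative to NC) and their p-value, not adjusted. The submitters' processing notes name HTSeq 0.6.0, the aligners HISAT2 2.1.0, Bowtie2 2.2.3 and TopHat2, the packages DESeq and DESeq2, and build GRCm38, but neither role nor order. Annotation release, strand setting and handling of reads with several positions: not given in the sources used here. RNA was selected on poly-T beads, per the labels' protocols.

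Positions came from GENCODE M21 (GRCm38), in which 31251 gene IDs were found. KD was compared with NC by edgeR 4.0.16 (R 4.3.3) over 6 libraries, with TMM factors, the default count filter, the quasi-likelihood test and adjustment over 18444 genes at 0.05. Standard errors and 95% intervals were derived from the F statistic and the fold change, and biological variation (BCV) was 40.9%. Levels per kilobase use raw counts over total counts, whereas CPM are scaled by TMM. Mitochondrial transcripts were aligned to the other GENCODE transcripts with BLAST 2.17.0, at 95% identity or more over at least 300 bases (mt-Nd4l, itself shorter, over its whole copy), in place of the chromosome sequence that had been planned. Sequences shown are from the same transcripts.

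All members were named. From each nuclear list up to 3 genes with the smallest p were taken, not all of which are printed. Members and lists were chosen with earlier results of these data known. Same-numbered libraries were not stated to be paired. DESeq2 1.42.0 and limma 3.58.1 served as alternatives, DESeq2 giving no adjusted p for 54 genes. edgeR and DESeq2 were both tested on simulated data. Intervals cover counting error or the spread between libraries only, as stated beside them. Those from edgeR draw partly on the spread of other genes.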

Additional observations from a re-analysis of the deposited data

How the results depend on the processing

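The 15 tested members were refitted under 17 alternatives each, and 0 of the 255 fits passed an adjusted p of 0.05, the smallest being 0.28, for mt-Cytb with DESeq2. The direction was kept in 227 and turned in 28. mt-Cytb, mt-Nd1, mt-Nd4 and mt-Nd5 stayed below 0 throughout, mt-Cytb between -0.44 and -0.17. Leaving out 1 library at a time gave log2 fold changes from -0.23 to 0.13 for mt-Rnr1, -0.20 to 0.19 for mt-Rnr2, -0.20 to 0.13 for mt-Tp, -0.050 to 0.16 for mt-Co2, -0.11 to 0.00037 for mt-Co1, -0.12 to 0.014 for mt-Nd6, -0.63 to 6.4e-05 for mt-Nd4l, -0.64 to -0.21 for mt-Nd2, -0.98 to -0.038 for mt-Nd3, -0.49 to -0.19 for mt-Nd5, -0.34 to -0.14 for mt-Nd4, -0.33 to -0.030 for mt-Atp6 and 0.070 to 0.45 for mt-Co3. Without both KD-2 and NC-1 the values were 0.0022 for mt-Nd2, 0.18 for mt-Nd3, 0.040 for mt-Atp6, 0.19 for mt-Rnr2 and 0.24 for mt-Tp. The median of the mitochondrial messenger genes was then -0.039 instead of -0.21, and 3 genes of all were called instead of 0. Leaving out 1 library called 0 genes each time, with the median between -0.23 and -0.10. DESeq2 called 347 genes and limma-voom 0. With library totals alone, which moved the median of all genes by -0.15, mt-Co2 was at -0.084 and the messenger median at -0.35. With the mean log2 CPM of the mature neuron markers as covariate mt-Co2 was at -0.013, mt-Co3 at -0.082, mt-Tp at 0.17, mt-Rnr1 at -0.34 instead of -0.048 and the messenger median at -0.088, and with limma-voom mt-Tp was at 0.019.

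With the replicate number as a block 0 genes were called, the median was -0.18 and mt-Tp stood at 0.0089. The numbers were not taken to pair libraries, because the labels do not state it. Deviations of same-numbered libraries from their group means correlated at 0.31, 0.10 and -0.26. Those of unlike-numbered libraries ran from -0.35 (KD-2 with NC-1) to 0.35 (KD-2 with NC-3), so these values cannot decide on pairing. Chosen after seeing the data, a term for libraries with over 1000 counts per 1000000 in the chromosome 1 copies called 0 genes and put mt-Rnr2 at 0.043, mt-Tp at 0.19 and the median at -0.16. Adding the copies' counts, likewise chosen after seeing the data, put mt-Co2 at -0.55, mt-Co3 at -0.34 and the median at -0.31. The difference in mitochondrial share, -0.571 percentage points, lay between -0.764 and -0.425 without 1 library. The difference in mt-Rnr2 per 1000 mt-Nd1 lay between -0.207 and 19.6, that in mt-Nd6 per 1000 mt-Cytb between 14.1 and 23.5 and that in mt-Nd5 per 1000 mt-Co1 between -66.4 and -17.8. The cause of these changes was not tested.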
